A study of Mus musculus with 4 samples.

Results

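The 10 genes described here encode the core machinery of the G1 phase of the cell cycle: the D cyclins Ccnd2 and Ccnd3 with their kinases Cdk4 and Cdk6, the E cyclins Ccne1 and Ccne2 with their kinase Cdk2, and the CDK inhibitors Cdkn1a, Cdkn1b and Cdkn2c. They were taken by symbol from the 24087 genes of the deposited expression table, and each symbol was found once. They were measured by RNA-seq in Treg cells, the Foxp3-expressing CD4+ T cells that restrain immune responses, sorted from spleen as CD3+CD4+YFP+ cells of C57BL/6 mice. The KO group was Foxp3Cre-YFPSetd2f/f and the CTRL group was littermate Foxp3Cre-YFPSetd2f/+, with 2 libraries per group and each library pooled from 2 mice. Both groups carry Cre and YFP under the Foxp3 promoter, so CTRL is not wild type: in its Treg cells Cre can delete 1 floxed Setd2 allele, and the unfloxed allele remains. Setd2 encodes the methyltransferase for H3K36me3, a histone mark laid down over transcribed gene bodies. No treatment was given, and the labels state no age.

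In G1, D cyclins bind Cdk4 or Cdk6 and begin the phosphorylation of RB, the repressor of E2F transcription factors. E2F then drives the E cyclins, which bind Cdk2 and carry the cell into S phase. Inhibitors of the INK4 family, such as Cdkn2c (p18), bind Cdk4 and Cdk6 alone, whereas those of the CIP/KIP family, Cdkn1a (p21) and Cdkn1b (p27), bind cyclin and CDK complexes. Cdkn1a is the classical target of p53, and Cdkn1b is known for its abundance in resting lymphocytes. Cyclins D2 and D3 and the kinase Cdk6 are typical of lymphoid cells.

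Promoter sequences of 4 of the genes are shown because the later comparisons with E2F, Myc and p53 genes bear on them. RefSeq windows of 300 bases on GRCm38.p6, from 250 bases before to 50 after an annotated start, were held for 8 of the 10 genes, in 11 windows. Ccnd2 and Ccne2 had no window. Capitals mark GC boxes in Ccne1, E2F core words in Cdk2, E-boxes in Cdk4 and a p53 element in Cdkn1a. Motifs of other kinds in these windows are left in small letters. All are printed 5′ to 3′ in the direction of transcription, with the minus strand for Ccne1 and Cdk2 and the plus strand for Cdk4 and Cdkn1a.
Ccne1, chr7:38107441-38107740: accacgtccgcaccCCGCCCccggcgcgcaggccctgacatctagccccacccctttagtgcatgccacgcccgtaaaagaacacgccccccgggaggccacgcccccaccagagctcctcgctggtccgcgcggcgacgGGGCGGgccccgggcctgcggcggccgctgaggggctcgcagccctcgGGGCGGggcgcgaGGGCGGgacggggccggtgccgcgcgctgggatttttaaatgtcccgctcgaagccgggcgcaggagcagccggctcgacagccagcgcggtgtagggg
Cdk2, chr10:128705002-128705301: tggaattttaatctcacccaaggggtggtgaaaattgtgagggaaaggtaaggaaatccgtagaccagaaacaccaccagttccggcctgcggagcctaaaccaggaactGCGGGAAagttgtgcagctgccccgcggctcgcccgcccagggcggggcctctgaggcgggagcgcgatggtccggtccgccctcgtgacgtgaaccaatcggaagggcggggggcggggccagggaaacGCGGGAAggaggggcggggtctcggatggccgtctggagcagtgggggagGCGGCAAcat
Cdk4, chr10:127063285-127063584: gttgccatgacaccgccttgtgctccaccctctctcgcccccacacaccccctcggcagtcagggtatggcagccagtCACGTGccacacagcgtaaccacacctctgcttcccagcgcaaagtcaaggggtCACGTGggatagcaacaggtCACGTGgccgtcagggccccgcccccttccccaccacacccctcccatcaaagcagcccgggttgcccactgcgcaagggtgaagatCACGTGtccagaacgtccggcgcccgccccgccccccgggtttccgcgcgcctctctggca
Cdkn1a, chr17:29090729-29091028: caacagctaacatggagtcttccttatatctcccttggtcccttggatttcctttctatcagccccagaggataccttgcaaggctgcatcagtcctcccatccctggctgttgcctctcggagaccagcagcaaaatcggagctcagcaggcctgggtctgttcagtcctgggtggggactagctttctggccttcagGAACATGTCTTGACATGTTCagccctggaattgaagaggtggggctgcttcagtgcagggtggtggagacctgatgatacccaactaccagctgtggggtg

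The words searched for on both strands were CACGTG for the E-box, which Myc can bind, GGGCGG for the GC box, CCAAT for the CCAAT box, and for the E2F core any of 4 words, which were TTCCCGC as the first form, TTCGCGC as the next, TTGGCGC as another and TTGCCGC as the last. The p53 element was taken as 2 abutting half-sites with at most 1 mismatch, a definition chosen after the Cdkn1a window had been seen. The Cdk4 window held 4 E-boxes. An E-box was present in 7.15% of the 32851 windows of the genome, and 4 or more in 8 windows, or 0.0244%. The limit of 4 equals the count in the Cdk4 window, and for the GC boxes below that in the Ccne1 window. Those shares therefore describe these windows and test nothing. The Cdk2 window held 3 E2F core words. At least 1 was held by 9.57% of all windows, a looser limit, and windows with 3 or more were not counted. The Ccne1 window held 4 GC boxes and 0 E2F core words. A GC box was present in 35.7% of all windows, and 4 or more in 5.49%. GC boxes also numbered 6 in the Cdk2 window, 3 in the Cdk4 window and 4 in a Cdkn2c window, with fewer than 3 in the rest. That Cdkn2c window also held an E2F core word, and the Cdk6 window and the other Cdkn2c window held an E-box. The p53 element lay in the upstream one of the 2 Cdkn1a windows, and in 0.0883% of all windows. The CCAAT box was present in 37.4% of all windows and occurred 3 times in the Cdkn1b window. In the printed windows no motif shares bases with a motif of another kind. A match of letters is a description of the window, not a site of binding.

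Levels are given as FPKM, fragments scaled by gene length and library total, as deposited. The reads behind them numbered at least 27250638 to 29749873 per library. All 10 genes were at 1 FPKM or more in each of the 4 libraries and entered the comparison of KO with CTRL, which used limma on log2(FPKM + 1) over 11399 genes with Benjamini-Hochberg adjustment. A call is an adjusted p under 0.05. On this scale a fold change understates the change of a weakly expressed gene. Setd2 itself measured 23.4 and 25.3 FPKM in the CTRL libraries against 21.3 and 19.5 in the KO libraries, a log2 fold change of -0.24 (adjusted p = 0.0970, limma). The whole-gene value does not measure the deleted exons on their own.

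The clearest differences within the G1 machinery lay on the cyclin E side. Ccne1 and Cdk2 rose in KO, Ccne2 stood higher without passing the test, and the D cyclins, Cdk4 and Cdk6 had log2 fold changes from -0.21 to 0.09. Cdkn1a had the highest fold change of the 10 genes and missed the threshold. Thus 2 of the 10 genes were called higher, against 5.10% of all genes tested, and 0 lower, against 4.65%, while 5 of the 10 had an unadjusted p under 0.05, against 34.7% of all genes tested. In 9 of the 10 genes the KO libraries did not overlap the CTRL libraries, 7 above and 2 below, a separation found in 64.5% of all genes tested. The median log2 fold change was 0.08 over the 10 genes and -0.02 over all genes tested.

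**Figure D1:**
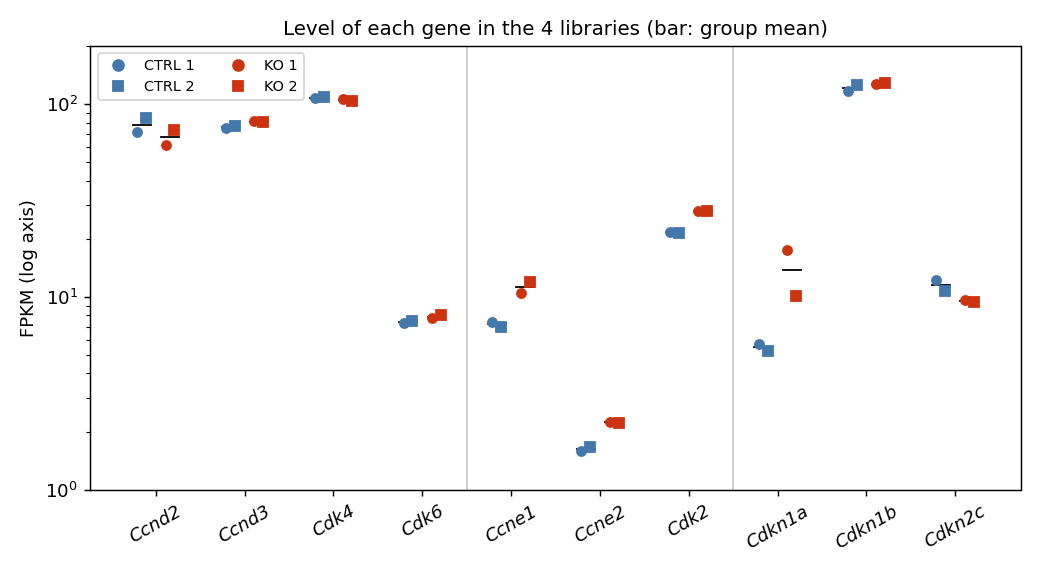
FPKM of the 10 genes on a log axis, with CTRL 1 and CTRL 2 in blue, KO 1 and KO 2 in red, circles for number 1, squares for number 2 and a short bar for each group mean; grey lines part the cyclin D, cyclin E and inhibitor genes. The KO points of Ccne1, Ccne2, Cdk2 and Cdkn1a all lie above their CTRL points, and KO 1 and KO 2 lie farthest apart in Cdkn1a.

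Gene positions are those of GENCODE vM21 on GRCm38. Ccnd2 (ENSMUSG00000000184, chr6:127125162-127152193, minus strand), which encodes cyclin D2, measured 71.9 and 84.3 FPKM in CTRL against 61.6 and 73.4 in KO. KO 2 lay between the 2 CTRL libraries, so the groups overlapped. The log2 fold change was -0.21 (SE 0.12, 95% confidence interval -0.51 to 0.09, adjusted p = 0.266, limma), and it ran from -0.33 to -0.08 with 1 library left out. In both groups the library numbered 1 was the lower one for Ccnd2. Ccnd3 (ENSMUSG00000034165, chr17:47505051-47599691, plus strand), which encodes cyclin D3, measured 75.1 and 77.0 FPKM in CTRL against 81.5 and 80.5 in KO. Both KO libraries lay above both CTRL libraries, by a log2 fold change of 0.09 (SE 0.05, interval -0.04 to 0.22, adjusted p = 0.275, limma).

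Cdk4 (ENSMUSG00000006728, chr10:127063534-127067920, plus strand), the main cyclin D kinase here by level, measured 107 and 109 FPKM in CTRL against 106 and 104 in KO. The KO libraries lay just below, with a log2 fold change of -0.04 (interval -0.17 to 0.09, adjusted p = 0.607, limma). Its partner form Cdk6 (ENSMUSG00000040274, chr5:3341485-3531008, plus strand) was far weaker, with 7.32 and 7.53 FPKM in CTRL against 7.74 and 8.04 in KO. Its log2 fold change was 0.08 (interval -0.11 to 0.27, adjusted p = 0.503, limma). For both kinases the interval leaves room for a difference of at most 0.27 on the log2 scale in either direction.

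Ccne1 (ENSMUSG00000002068, chr7:38097984-38107534, minus strand), which encodes cyclin E1, measured 7.40 and 6.97 FPKM in CTRL against 10.5 and 12.0 in KO. Both KO libraries lay above both CTRL libraries, and the mean was 1.56-fold higher in KO. The log2 fold change was 0.58 (SE 0.09, interval 0.35 to 0.81, adjusted p = 0.0375, limma), on at least 472 to 829 reads per library. Cdk2 (ENSMUSG00000025358, chr10:128697939-128705031, minus strand), the kinase that cyclin E activates, measured 21.8 and 21.4 FPKM in CTRL against 27.9 and 28.0 in KO. Replicates of Cdk2 were nearly equal in both groups, and its mean was 1.29-fold higher in KO. The log2 fold change was 0.36 (SE 0.06, interval 0.21 to 0.50, adjusted p = 0.0378, limma), on at least 1737 to 2413 reads. Ccne2 (ENSMUSG00000028212, chr4:11191351-11204779, plus strand), which encodes cyclin E2, was the weakest of the 10 genes, with 1.58 and 1.66 FPKM in CTRL against 2.24 and 2.23 in KO. Its libraries did not overlap, and the log2 fold change of 0.30 (interval 0.03 to 0.58) had an adjusted p of 0.121 by limma, on at least 167 to 254 reads.

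The call of Ccne1 was kept in 10 of 11 other settings of the fit and that of Cdk2 in 9 of 11. Neither was kept when a library was left out: without any 1 of the 4 libraries, adjusted p by limma was 0.113 to 0.146 for Ccne1 and 0.116 to 0.141 for Cdk2, with log2 fold changes of 0.49 to 0.66 and 0.35 to 0.37. In those fits the lone library of a group was assumed to vary like the other group, and at most 1 of the 11399 genes was called in either direction.

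**Figure D2:**
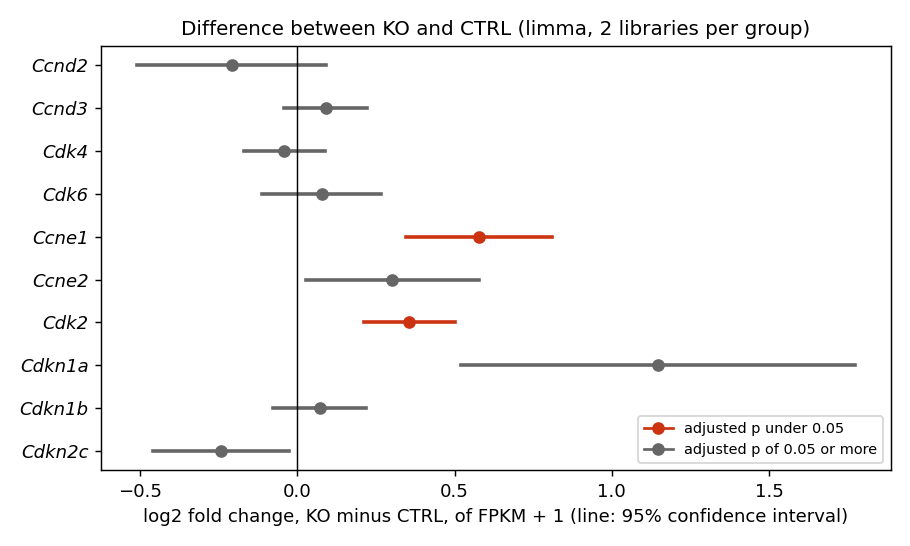
Log2 fold change of FPKM + 1, KO minus CTRL, for the 10 genes, as a point with its 95% confidence interval from limma; red marks an adjusted p under 0.05. Ccne1 and Cdk2 are the 2 red points, at 0.58 and 0.36, and the interval of Cdkn1a, 0.52 to 1.77, is the widest.

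Among the inhibitors, Cdkn1a (ENSMUSG00000023067, chr17:29090976-29100727, plus strand) measured 5.66 and 5.26 FPKM in CTRL against 17.5 and 10.1 in KO. Both KO libraries were above both CTRL libraries, but they differed from each other by 0.74 on the log2 scale, more than in 97.6% of all genes tested (median 0.09). The mean was 2.52-fold higher in KO, and the log2 fold change was 1.15 (SE 0.24, interval 0.52 to 1.77, adjusted p = 0.0509, limma). That fold change was number 38 from the top among the 11399 genes. Over the 11 other settings the adjusted p of Cdkn1a by limma ran from 0.012 to 0.122, under the threshold in 6. Without KO 1 its log2 fold change was 0.78, and without KO 2 it was 1.52, with an adjusted p by limma of 0.0888 to 0.183 over the 4 fits that left out a library.

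Cdkn1b (ENSMUSG00000003031, chr6:134920401-134925513, plus strand) was the most abundant of the 10 genes, with 117 and 125 FPKM in CTRL against 127 and 128 in KO. Its log2 fold change of 0.07 (interval -0.08 to 0.22, adjusted p = 0.427, limma) turned to -0.03 under quantile normalization. Cdkn2c (ENSMUSG00000028551, chr4:109660876-109667189, minus strand), the INK4 inhibitor, measured 12.2 and 10.8 FPKM in CTRL against 9.60 and 9.43 in KO. The KO values were both under the CTRL values, opposite to Cdkn1a. The log2 fold change of Cdkn2c was -0.24 (interval -0.46 to -0.03, adjusted p = 0.117, limma). With 1 library left out it ran from -0.33 to -0.16, and that of Cdkn1b from 0.02 to 0.12.

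The sorted cells were checked against marker genes, which also bear on Cdkn1a. The 7 T and Treg cell markers, Foxp3 among them, were all detected and summed to 1584 to 1668 FPKM per library, with 0 of 7 called. The sum hides shifts of single markers. Il2ra, Foxp3, Cd4 and Cd3d had both KO libraries below both CTRL libraries, Ikzf2 had both above, and Cd3e and Ctla4 overlapped. Log2 fold changes were -0.35 for Il2ra, -0.17 for Foxp3 and 0.17 for Ikzf2. Groups did not overlap in 64.5% of all genes tested. Of the 13 markers of other cells, none was at 0 in all libraries and none of the 10 that were tested was called; together they summed to 185 and 116 FPKM in CTRL and to 238 and 102 in KO. The myeloid genes Lyz2, Csf1r and Itgax made up most of this, with 151 and 94.7 FPKM in CTRL against 190 and 78.2 in KO. B cell markers ran from 4.61 to 15.3, erythroid markers from 2.21 to 19.9, CD8 T cell markers from 8.49 to 11.4 and NK cell markers from 2.14 to 2.56. The libraries numbered 1 thus had more myeloid marker RNA than those numbered 2 in both groups. KO 1 had the highest sum, and it was also highest for Cdkn1a. That rank of the sum came from Lyz2, with 114 FPKM in CTRL 1 and 153 in KO 1. Csf1r (34.9 and 34.7) and Itgax (2.63 and 2.30) were highest in CTRL 1. KO 2 had the lowest myeloid sum and lay above both CTRL libraries for Cdkn1a. The part of these cells in the Cdkn1a values was not tested. In bulk RNA, fewer cells of a type and less RNA per cell cannot be told apart.

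**Figure D3:**
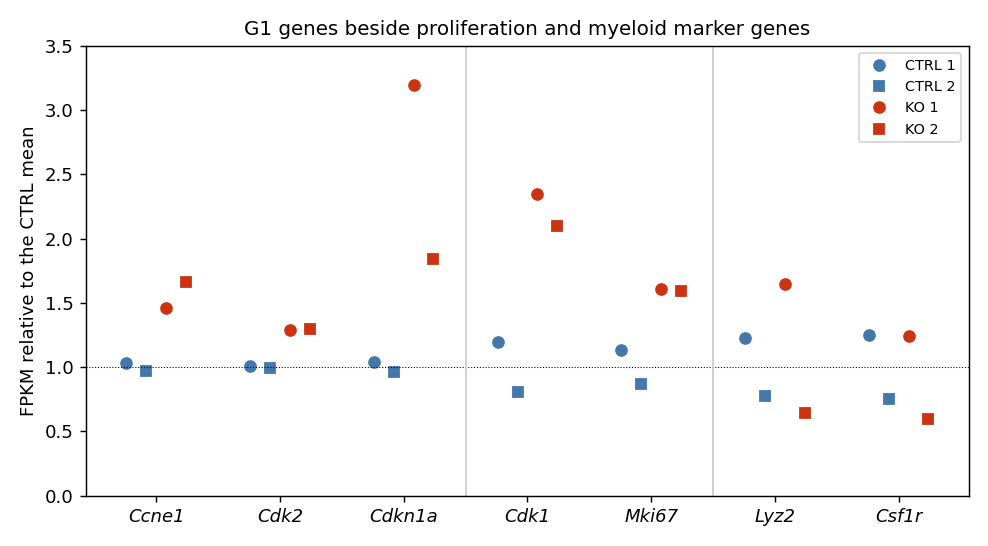
FPKM of each library divided by the CTRL mean of that gene, for 3 G1 genes, 2 proliferation genes and 2 myeloid genes, with CTRL in blue, KO in red, circles for number 1 and squares for number 2. For Lyz2 and Csf1r the libraries part by number, whereas for Ccne1, Cdk2, Cdk1 and Mki67 they part by genotype; Cdkn1a parts by genotype with KO 1 far above KO 2.

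By level, the order in CTRL was Cdkn1b, Cdk4, Ccnd2, Ccnd3, Cdk2, Cdkn2c, Cdk6, Ccne1, Cdkn1a and Ccne2. Ccnd2 and Ccnd3 overlapped in their CTRL libraries, as did Cdk6 and Ccne1, and every other pair of neighbours was separate. In KO the order was Cdkn1b, Cdk4, Ccnd3, Ccnd2, Cdk2, Cdkn1a, Ccne1, Cdkn2c, Cdk6 and Ccne2, in which only Cdkn1a and Ccne1 overlapped. Cdkn1a thus stood at place 9 in CTRL and place 6 in KO. Cdkn1b and Cdk4 were more abundant than 95.6% and 94.5% of all genes tested, and Ccne2 than 9.82%.

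The make-up within each class was compared as shares of the summed FPKM, with exact permutation tests that can give no p below 0.333 with 2 libraries against 2. Ccnd2 held 48.3% and 51.7% of the D cyclins in CTRL and 42.5% and 47.2% in KO, a difference of -5.11 percentage points. Ccnd3 held 50.4% and 47.2% in CTRL and 56.3% and 51.8% in KO, a difference of 5.22 points. With 1 library left out these differences ran from -7.46 to -2.76 points for Ccnd2 and from 2.99 to 7.46 for Ccnd3, smallest in size without KO 1. The D cyclin pool was therefore split about evenly in CTRL. Both KO libraries held more Ccnd3 than Ccnd2, as did CTRL 1, whereas CTRL 2 held more Ccnd2. Cdk4 held 93.6% and 93.5% of Cdk4 plus Cdk6 in CTRL and 93.2% and 92.8% in KO. Ccne1 held 82.4% and 80.8% of the E cyclins in CTRL and 82.5% and 84.3% in KO, a difference of 1.81 points that ran from 0.888 to 2.73 with 1 library left out. Of the 3 inhibitors, Cdkn1a took 4.18% and 3.72% in CTRL and 11.4% and 6.81% in KO, a difference of 5.13 points that was 2.85 without KO 1. Cdkn1b took 86.8% and 88.7% in CTRL and 82.4% and 86.8% in KO, so that the groups overlapped in this share, and the difference of -3.13 points was -0.927 without KO 1. Cdkn2c took 9.01% and 7.61% in CTRL and 6.24% and 6.38% in KO, a difference of -2.00 points that was -1.29 without CTRL 1. The exact permutation p was 0.667 for Cdkn1b and 0.333, the smallest possible, for the other 6 shares.

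Reads of overlapping genes can move between partners, because the use of strand in counting was not stated. Cdk4 shares 641 exon bases with Tspan31, a tetraspanin gene on the other strand. Tspan31 measured 35.4 and 33.2 FPKM in CTRL against 12.9 and 12.8 in KO, and it fell by 1.35 on the log2 scale (adjusted p = 0.0232, limma). Cdk4, at 104 to 109 FPKM in all libraries, showed no change of that size, but reads of the shared bases cannot be told apart. Cdk2 shares 34 exon bases with Pmel, whose log2 fold change was -0.38 (adjusted p = 0.0678, limma). The partners of Ccnd3 (Bysl, 361 bases), Ccne2 (Ints8, 609 bases) and Ccnd2 (9330179D12Rik, 368 bases) had log2 fold changes of -0.04, -0.02 and 0.10 and were not called. Genes annotated on the other strand, Gm43126 at Ccnd2, Gm17590 and Gm42435 at Cdk6, and AC167363.2 at Cdkn1a, are not analysed here. In Cdkn1a, 5.33% of 100-base stretches of the transcripts also occur in transcripts of other genes. Ccne1, Cdkn1b and Cdkn2c overlap no annotated exon of another gene.

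The genes around this machinery were followed in 8 lists of 129 genes, described by counts and medians beside the share of all genes called, 5.10% higher and 4.65% lower. The 5 remaining G1 cyclin and inhibitor genes had 0 called of 4 tested and a median log2 fold change of 0.39. Cdkn2d (p19), an INK4 inhibitor and the most abundant of them, measured 37.8 and 37.3 FPKM in CTRL against 43.6 and 50.8 in KO (log2 fold change 0.32, adjusted p = 0.0741, limma). Cdkn1c and Cdkn2a had log2 fold changes of 0.76 and 0.45 and Ccnd1 of -0.12, none called, and Cdkn2b was under the filter. These 4 were named after their values were seen. Exons of Cdkn1c overlap Gm44732 and those of Ccnd1 overlap LTO1, both on the other strand.

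Upstream of cyclin E, the RB and E2F family had 4 of 13 genes higher and 1 lower, with a median of 0.10. E2f8, an atypical repressor E2F, rose from 4.91 and 3.97 FPKM in CTRL to 8.57 and 8.19 in KO (log2 fold change 0.79, adjusted p = 0.0351, limma). E2f1, an activator E2F, rose from 4.39 and 3.77 to 7.73 and 7.43 FPKM (0.76, adjusted p = 0.0346, limma). E2f5, a repressor that works with RB relatives, fell from 10.3 and 9.79 to 6.95 and 5.37 FPKM (-0.63, adjusted p = 0.0450, limma). Exons of E2f5 overlap 1810022K09Rik and those of E2f8 overlap Gm2788, both on the other strand.

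The kinases and phosphatases that switch CDKs on and off had 2 of 8 genes higher and 0 lower, with a median of 0.37. Cdc25b, a phosphatase that activates CDKs, was the most abundant of the 8 and rose from 62.3 and 62.4 FPKM to 87.9 and 98.4 (log2 fold change 0.57, adjusted p = 0.0346, limma). Pkmyt1, a kinase that inhibits Cdk1, rose from 11.9 and 12.7 to 15.8 and 16.7 FPKM (0.38, adjusted p = 0.0424, limma). Exons of Cdc25b and Pkmyt1 overlap those of Spef1 and Paqr4 on the other strand. Of the 16 genes that degrade G1 cyclins and inhibitors, 2 were higher and 1 lower, with a median of -0.05. Cks1b, the SCF cofactor through which p27 is recognised, rose by 0.62 on the log2 scale, and Dtl, which directs p21 to destruction, rose by 0.61. Cul4a, a scaffold of the ligase that Dtl serves, fell by 0.54. Adjusted p by limma was 0.0406, 0.0475 and 0.0346.

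Downstream, in S, G2 and M phase, the change was broad. Of 22 cyclins and proliferation markers, 18 rose and 0 fell, with a median log2 fold change of 0.73. In all 22 both KO libraries lay above both CTRL libraries, as they did in 29% of all genes tested. Cdk1, the mitotic kinase, measured 7.51 and 5.08 FPKM in CTRL against 14.8 and 13.2 in KO (log2 fold change 1.06, adjusted p = 0.0382, limma). Top2a, a topoisomerase of dividing cells, measured 31.4 and 24.5 FPKM in CTRL against 57.6 and 58.5 in KO (1.04, adjusted p = 0.0346, limma). Exons of Top2a overlap Gm23451 on the same strand. Aurkb, a mitotic kinase, rose by 0.99, and Mki67, the marker of cycling cells, measured 31.8 and 24.3 FPKM in CTRL against 45.1 and 44.7 in KO (0.67, adjusted p = 0.0433, limma). Without any filter on low values, or with any 1 library left out, 0 of the 22 passed the threshold. Ccne1 and Cdk2 were called beside these genes, with smaller fold changes than the median of the list.

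**Figure D4:**
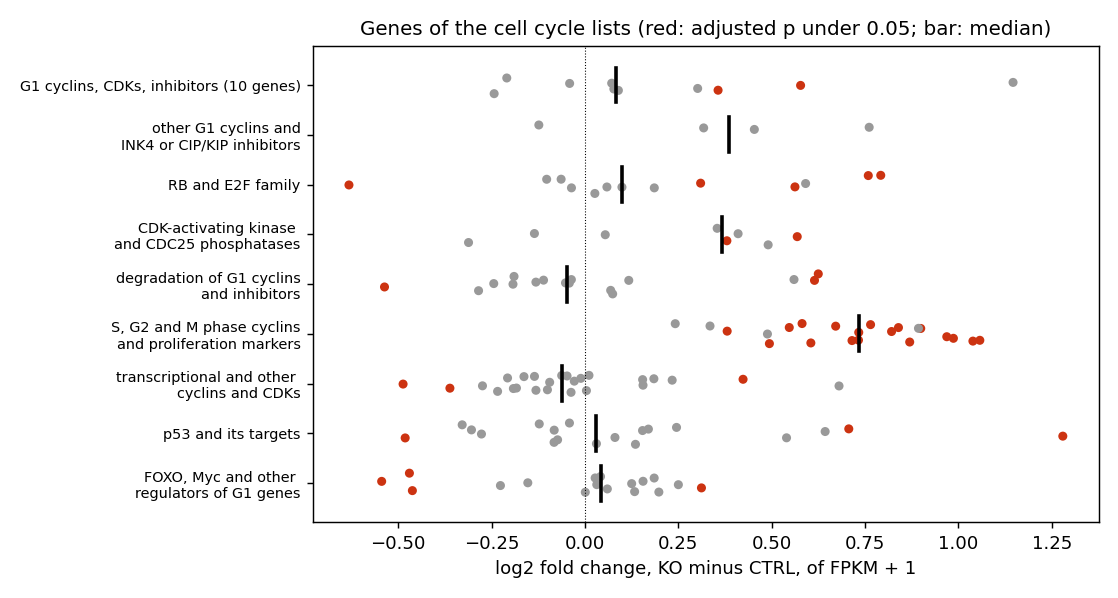
Log2 fold change of FPKM + 1, KO minus CTRL, of every tested gene of the 10 G1 genes and the 8 lists; each dot is a gene, red marks an adjusted p under 0.05 and the bar is the median of the row. The S, G2 and M phase row lies wholly to the right of 0 with a median of 0.73, while the medians of the degradation, transcriptional, p53 and regulator rows lie between -0.06 and 0.04.

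Cyclins and CDKs that act in transcription or elsewhere had 1 of 25 tested genes higher and 2 lower, with a median of -0.06. Cdk9, the kinase that releases paused RNA polymerase II, rose from 35.5 and 33.5 FPKM to 47.1 and 46.1 (log2 fold change 0.42, adjusted p = 0.0351, limma). Exons of Cdk9 overlap Mir2861 and Mir3960 on the same strand. Cdk8, the kinase of the Mediator complex, fell by 0.49 (adjusted p = 0.0351, limma). Cdk10 fell by 0.36 (adjusted p = 0.0486, limma), and its exons overlap Spata2l on the other strand and Gm45842 on the same strand.

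The p53 list was set beside Cdkn1a, its classical target. Of 19 tested genes 2 were higher and 1 lower, and the median was 0.03, with fold changes from -0.48 to 1.28. Perp, a p53 target that encodes a protein of cell junctions, was weak, with 1.38 and 0.97 FPKM in CTRL against 4.68 and 3.87 in KO (log2 fold change 1.28, adjusted p = 0.0346, limma). Gtse1, a G2 and S phase gene that restrains p53, rose by 0.71, and Mdm4, an inhibitor of p53, fell by 0.48. Adjusted p by limma was 0.0482 and 0.0329. Phlda3 and Pmaip1, p53 targets named after their values were seen, had log2 fold changes of 0.64 and 0.54 (adjusted p = 0.0735 and 0.128, limma). Perp, Phlda3 and Pmaip1 were each higher in KO 1 than in KO 2, as Cdkn1a was. Other genes of the list, also named after their values were seen, went the other way. Aen measured 7.28 FPKM in KO 1 and 7.47 in KO 2, and Ddit4 24.1 and 30.3. Plk2, Aen and Sesn1 had log2 fold changes of -0.33, -0.30 and -0.28, without a call.

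Of 17 FOXO, Myc and other regulators of G1 genes, 1 was higher and 3 lower, with a median of 0.04. Myc, which drives growth and activates Cdk4 and cyclin D genes through E-boxes, fell from 65.4 and 64.9 FPKM to 41.3 and 47.6 (log2 fold change -0.54, adjusted p = 0.0355, limma). Cdk4, whose window holds the 4 E-boxes printed above, had a log2 fold change of -0.04 in the same libraries. Whether Myc acted on Cdk4 in these cells was not tested. Kmt2a, an H3K4 methyltransferase, fell by 0.47 (adjusted p = 0.0346, limma), and its exons overlap AC061963.1 on the other strand. Bmi1, the Polycomb repressor of the Cdkn2a locus, fell by 0.46 (adjusted p = 0.0385, limma). Cdkn2a measured 0.86 and 0.71 FPKM in CTRL against 1.45 and 1.44 in KO without a call, on at least 14 to 29 reads per library. A link between Bmi1 and Cdkn2a was not tested.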

How the data were processed

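RNA-seq of splenic Treg cells covered 2 CTRL and 2 KO libraries. The authors mapped reads to mm10 (GRCm38) with HISAT2 (version 2.2.1), counted them with featureCounts (version 2.0.1) and tested counts with edgeR (version 3.34.0), as the study's methods and the submitters' processing notes state. The deposited values were FPKM made by the authors. Gene length, annotation version, strand and multi-mapping were not given in the sources used here. Columns named WT were read as the CTRL libraries of the same number. The file held no counts, so limma (version 3.58.1, R 4.3.3; lmFit, eBayes with trend, two-sided) was used on log2(FPKM + 1) for genes that reached an FPKM of 1 in 2 or more libraries. FPKM values stood in whole-number ratios in 99.935% of the 19888 genes above 0 in any library (tolerance 0.01 reads), which gave least read numbers. The recovered reads are these least numbers, which can lie below the true counts. The code was tested on simulated data. The 10 genes and the lists were chosen with earlier results of these data known. Named genes were the 10, Setd2, Mki67, genes overlapping the 10, and per list the 3 called genes of largest absolute fold change, with the most abundant gene where fewer than 3 were called. Gene positions came from GENCODE vM21. Alternatives covered the pseudocount, filters, scalings, variance models, the replicate block, recovered reads, exon length and each library left out. Each library pooled 2 mice, so p-values measure the spread between pools.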

Additional observations from a re-analysis of the deposited data

How the results depend on the processing

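Of 149 alternative values of the 10 genes, 131 kept their direction and side of the threshold, 11 lost the call, 6 gained it and 1 turned. Without a filter on low values, where 19888 genes were tested, Ccne1 stayed at 0.58 (adjusted p = 0.0887, limma) and Cdk2 at 0.36 (adjusted p = 0.086, limma). Calls were then 0 higher and 0 lower by limma, against 4463 genes at an unadjusted p under 0.05. Thus 0 of the 10 genes and 0 of the S, G2 and M phase list were called. More genes were adjusted over, and the variance trend was fitted again with the weak genes included. Which of these removed the calls was not tested. Without the variance trend Cdk2 at 0.36 had an adjusted p of 0.052, 315 genes were higher and 1 of the 10 genes was called. Cdkn1a passed at 1.27 with a pseudocount of 0.1 (adjusted p = 0.0495), 1.15 with a mean FPKM above 5 (0.0386), 1.17 with median-ratio scaling (0.0462), 1.20 with quantile normalization (0.0439) and 1.27 with limma-voom on recovered reads (0.0387). Quantile normalization turned Cdkn1b to -0.03. Limma-voom called 854 genes higher and 1021 lower. The share of Cdk4 changed by -0.56 percentage points as FPKM and by -0.259 as recovered reads over exon length. Calls were higher in 52.3% as deposited, 60.2% with median-ratio scaling, 46.8% with equal summed FPKM and 45.5% with limma-voom.

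Leaving out each library gave 0.49 to 0.66 for Ccne1, 0.35 to 0.37 for Cdk2 and 0.78 to 1.52 for Cdkn1a. It left 0 to 1 genes higher and 0 to 1 lower by limma (2681 to 3044 at an unadjusted p under 0.05), and 0 of the 10 genes and 0 of the S, G2 and M phase list, in each of the 4 fits.

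No label ties a replicate number to a litter or day, and with 2 pairs the numbers were not taken to pair the libraries. Deviations of same-numbered libraries correlated across genes with Pearson's r of 0.342 and Spearman's rho of 0.0553, and myeloid markers and Ccnd2 differed by number in the same direction in both groups. With the replicate block Cdkn1a passed at 1.15 (adjusted p = 0.012), and 968 genes were higher and 805 lower; Ccnd2 at -0.21 had an adjusted p of 0.0733 and was not called.

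With 2 libraries in each group, standard errors on the log2 scale had a median of 0.09, which set the precision.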
